A study of Mus musculus with 2 samples.

Results

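Interleukin 1β is a cytokine that starts inflammation, and its effect depends on which receptor or antagonist it meets. Il1b encodes the cytokine, made as an inactive precursor that a protease of the inflammasome cuts. Il1r1 encodes the receptor that signals, and Il1rap encodes the accessory chain that this receptor needs. Il1r2 encodes a decoy receptor that binds the cytokine without signalling, and Il1rn encodes an antagonist that occupies the signalling receptor. Neutrophils are known as a source of the cytokine and of the decoy receptor. These 5 genes, of 32285 in the count matrices, were taken by their symbols, and each symbol had 1 row in both libraries.

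The study set out to describe senescent neutrophils in ageing. Its old library was made from blood of mice aged 24 months and its young library from mice aged 2 months, both labelled male, with no genotype, strain or treatment given. Live cells positive for CD45, CD11b and Ly6G were sorted after red cell lysis and captured with BD Rhapsody, a microwell system in which each RNA molecule receives a cell barcode and a unique molecular identifier (UMI). The labels name this system, while the file headers name Cell Ranger, software written for another capture system. There was 1 library per age, and the number of animals behind each is not stated, so no test between ages is possible and all values describe these libraries. Ranges in parentheses are exact 95% intervals (Poisson for UMI counts, Clopper-Pearson for shares of cells) and cover counting error only.

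The old library held 14334 barcodes and the young library 13599, with medians of 7265.5 and 4246 UMIs per barcode. The filters left 13517 old and 12921 young cells, and 53 barcodes occurred in both libraries. Clusters carrying neutrophil markers held 8915 old cells (66.0%) and 9940 young cells (76.9%), with median depths of 7427 and 4078 UMIs. All 10 neutrophil markers had at least 20 CPM in these cells (a gene's UMIs over all UMIs of the summed cells, scaled to 1000000) of both libraries. Of 5 eosinophil markers, Epx and Prg2 had no UMI, while the other 3 had UMIs and summed to 6.11 CPM in old and 24.7 CPM in young cells. Xist, transcribed from the silenced X chromosome of females, was found at 210 CPM in the old library and 160 CPM in the young library, against the male label, and the Y-linked Ddx3y had 967 and 1329 UMIs, whereas Eif2s3y had 0 in both, Uty 3 and 14 and Kdm5d 5 and 0. None of these genes was compared by itself, and none was removed from the genes counted as background.

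The members lie on 3 chromosomes of the mouse genome (GENCODE positions, build GRCm38). Il1b spans chr2:129364570-129371139 on the minus strand and Il1rn chr2:24336853-24351494 on the plus strand. Il1r2 (chr1:40074079-40125231) and Il1r1 (chr1:40225080-40317257) are on the plus strand of the same chromosome, and Il1rap spans chr16:26581704-26730117, also on the plus strand. All 5 are protein-coding genes. Exons of Il1b overlap the antisense gene Il1bos and those of Il1rap overlap Gm20319, and the sources used here do not say how the counting used strand. In neutrophil-like cells these partners had 0.244% of the Il1b UMIs in the old library and 0.606% in the young library, and 0.422% and 0.281% of the Il1rap UMIs.

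Among the members, Il1b and Il1rap each had the other as the gene of most similar pattern over cluster profiles, and Il1rn differed most between old and young cells, so the 250 bases before 1 start of each are shown (RefSeq, build GRCm38.p6, 5′ to 3′ on the gene's strand). Capitals mark matches to the motifs searched on both strands: GGG, any 5 bases and CC (NF-kB), TTNNGNAA (C/EBP), TGANTCA (AP-1), GAAA, any 2 bases and GAAA (interferon-stimulated response element) and GAGGAA (PU.1).
Il1b (chr2:129371140-129371389, minus strand): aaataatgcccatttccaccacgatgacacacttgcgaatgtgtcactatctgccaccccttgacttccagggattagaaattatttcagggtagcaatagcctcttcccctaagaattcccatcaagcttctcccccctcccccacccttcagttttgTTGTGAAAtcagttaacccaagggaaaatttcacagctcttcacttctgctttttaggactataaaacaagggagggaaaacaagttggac
Il1rap (chr16:26581455-26581704, plus strand): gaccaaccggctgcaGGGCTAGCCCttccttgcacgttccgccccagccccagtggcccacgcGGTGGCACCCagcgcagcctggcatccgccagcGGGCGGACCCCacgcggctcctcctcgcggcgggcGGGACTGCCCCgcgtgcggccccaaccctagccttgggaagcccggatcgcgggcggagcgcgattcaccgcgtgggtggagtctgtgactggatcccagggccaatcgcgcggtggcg
Il1rn (chr2:24336610-24336859, plus strand, the first of 3 starts): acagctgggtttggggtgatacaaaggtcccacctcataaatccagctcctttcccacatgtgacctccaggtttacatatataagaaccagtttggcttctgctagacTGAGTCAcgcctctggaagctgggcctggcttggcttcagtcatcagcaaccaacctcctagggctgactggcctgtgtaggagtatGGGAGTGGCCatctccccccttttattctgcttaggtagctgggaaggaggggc
The Il1b window held 1 match, the C/EBP letters TTGTGAAA at bases -91 to -84 counted from the start. The Il1rap window held 6 matching windows of the NF-kB motif, some overlapping, and none of the other 4 motifs. The Il1rn window held TGAGTCA at -141 to -135 and GGGAGTGGCC at -54 to -45. Over the 250 bases before all 32851 starts in the table, 45.8% held the NF-kB motif, 36.8% the C/EBP motif, 6.75% the AP-1 motif, 2.98% the interferon-stimulated response element and 23.3% the PU.1 motif, so most of these matches are common ones.

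Neutrophil-like cells held Il1b at a high level, Il1rap and Il1r2 at intermediate levels, Il1rn at a low level and Il1r1 almost not at all. UMIs count molecules and were not divided by length. Il1b had 1575 CPM (1567 to 1584) in old cells and 2968 CPM (2952 to 2984) in young cells. Il1rap had 419 and 899 CPM, Il1r2 had 415 and 739 CPM, and Il1rn had 56.0 and 162 CPM, each given as old and then young. The order of the genes was the same in both libraries. Il1rap and Il1r2 did not differ beyond their intervals in old cells, where Il1rap stood 1.01-fold above Il1r2, and differed by 1.22-fold in young cells.

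Il1r1, the signalling receptor, had 36 UMIs in 30 of 8915 old neutrophil-like cells and 48 UMIs in 29 of 9940 young ones, or 0.461 CPM (0.323 to 0.638) and 1.07 CPM (0.792 to 1.42). These levels lie under the 5 CPM below which a gene was counted as not measured, so the members measured in neutrophils are 4 of 5. B cell-like cells, which should lack neutrophil RNA, had 3 Il1r1 UMIs in 242 old cells and 0 in 421 young cells, which allows a share of up to 0.713% of cells with a UMI. The share of neutrophil-like cells with an Il1r1 UMI was 0.337% in the old and 0.292% in the young library, against 0.826% in old B cell-like cells and that limit in young ones, so a level above free RNA was not detectable by this share.

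Per cell, the old and young libraries held similar numbers of Il1b molecules in neutrophil-like cells. The mean was 13.8 UMIs per old cell and 13.3 per young cell, with a median of 11 in both. Il1r2 had 3.64 and 3.32 UMIs per cell and Il1rap 3.67 and 4.04. Il1rn had 0.491 UMIs per old cell and 0.727 per young cell, a ratio of 0.675. Old cells were deeper, so after division by depth all 4 measured genes were more than 1.5-fold lower in old cells, at log2 ratios of -0.91 for Il1b (-0.92 to -0.90), -0.83 for Il1r2, -1.10 for Il1rap and -1.51 for Il1rn (ratios of CPM with 1 CPM added). At this limit 50.6% of the 7199 genes measured were lower, and the median gene stood at -0.68. Relative to that gene Il1rn was at -0.83 and the other 3 lay between -0.42 and -0.15, inside 1.5-fold. The make-up of the total also differed between the libraries. S100a8 and S100a9, genes of abundant neutrophil proteins, took a median of 26.3% of the UMIs of old and 8.80% of young neutrophil-like cells. Their part in the CPM ratios was not tested alone. Thinning every cell to 1000 UMIs left an Il1b UMI in 64.4% of old and 86.4% of young neutrophil-like cells, against 90.3% and 98.1% before thinning. In B cell-like cells the thinned shares were 19.0% in the old and 19.1% in the young library, at median depths of 8614 and 6382 UMIs.

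The old and young neutrophils differed in maturity. Ltf, Camp and Ngp encode proteins of the specific granules, are transcribed in developing neutrophils and are shut off as the cells mature, and their summed share of a cell's UMIs (the granule share) served as the scale. Granule shares under 0.1%, from 0.1 to 0.3%, 0.3 to 1%, 1 to 3% and 3% or more were found in 4646, 1882, 806, 631 and 950 old cells. The same classes held 9764, 66, 43, 21 and 46 young cells. Old cells were thus spread along the scale, with 52.1% in the lowest class, while 98.2% of young cells sat in it. Near the lowest limit, 859 old and 17 young cells had 0.08 to 0.1% and 591 old and 12 young cells had 0.1 to 0.12%. Old B cell-like cells had a median granule share of 0.0437% and young ones of 0, so the low end of the scale is within the reach of free RNA in the old library.

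Il1b was low in granule-rich cells and high in granule-poor cells of both libraries. In old cells it had 2901, 1880, 592, 272 and 196 CPM from the lowest to the highest granule class. In young cells the values were 3063, 539, 755, 356 and 91.9 CPM, the last 4 from 21 to 66 cells each. The same order held for molecules per cell in the old library, at 18.3, 14.3, 6.49, 3.72 and 3.49 UMIs, although median depth in these classes ran the other way, from 5980 to 16718 UMIs. Median Il1b UMIs per old cell were 16, 12, 2, 1 and 1, so a typical cell of the upper 2 classes held 1 Il1b UMI, below the mean.

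The accessory chain gene Il1rap went with Il1b. It had 683, 507, 263, 166 and 98.9 CPM along the granule classes of old cells and 926, 271, 235, 128 and 82.7 CPM along those of young cells. In UMIs per cell the old values were 4.32, 3.85, 2.88, 2.27 and 1.76. Its level was thus lower in each class than in the class before it, in CPM in both libraries and in UMIs per cell in the old one.

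The decoy receptor gene Il1r2 and the antagonist gene Il1rn behaved differently when counted per cell. Il1r2 had 3.76, 3.68, 3.37, 3.52 and 3.25 UMIs per old cell along the granule classes, close to level. Il1rn had 0.472, 0.444, 0.540, 0.593 and 0.568 UMIs per old cell, slightly higher at the granule-rich end. In young cells Il1r2 had 3.32, 3.45, 3.74, 4.48 and 2.65 and Il1rn 0.722, 0.758, 1.47, 1 and 0.978 UMIs per cell. Because granule-rich cells are deeper, the CPM of both genes was lower in them, with Il1r2 at 594 CPM in the lowest and 182 CPM in the highest class of old cells and Il1rn at 74.6 and 31.9 CPM.

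**Figure D1:**
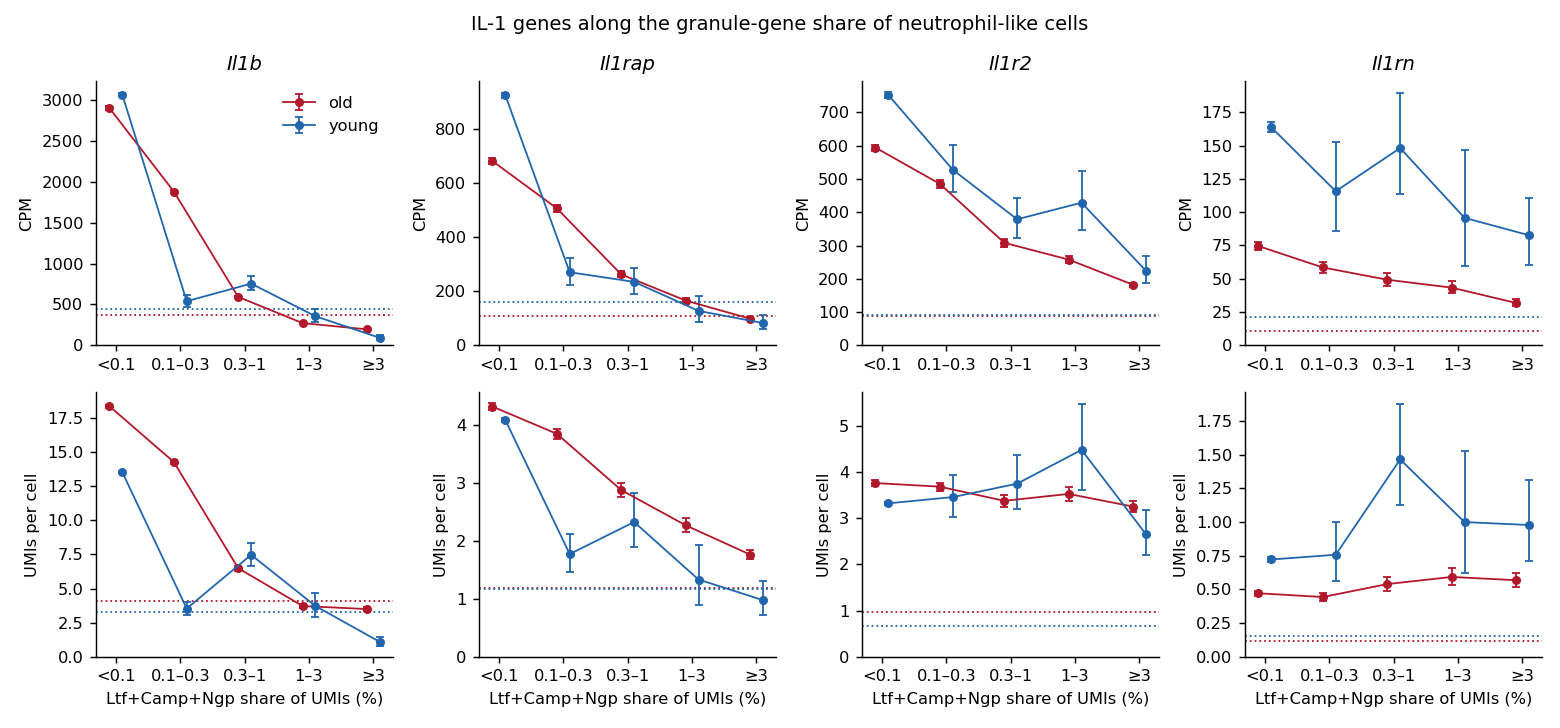
CPM (top) and UMIs per cell (bottom) of 4 members against the Ltf, Camp and Ngp share of UMIs in neutrophil-like cells, old in red and young in blue, with exact 95% Poisson intervals as bars and the B cell-like level of each library as a dotted line. Il1b and Il1rap are low in granule-rich cells on both scales, whereas Il1r2 and Il1rn stay near 3.25 to 3.76 and 0.444 to 0.593 UMIs per cell in the old library.

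Granule-high cells (1% or more) were set against granule-low cells (under 0.1%) within each library. In the old library Il1b had 221 CPM in 1581 granule-high cells and 2901 CPM in 4646 granule-low cells, a log2 ratio of -3.71 (-3.75 to -3.67). In the young library it had 168 CPM in 67 granule-high cells and 3063 CPM in 9764 granule-low cells, at -4.18 (-4.45 to -3.94). Only 0.0148% of the 6776 genes measured in the old library had a lower ratio than Il1b, and 0.935% of 7273 genes in the young one. Il1rap stood at -2.48 in the old and -3.26 in the young library, Il1r2 at -1.51 and -1.41, and Il1rn at -1.04 and -0.91. All 4 measured members were lower past 1.5-fold in each library, a limit that 36.4% of genes passed downward in the old and 46.2% in the young library, where the median gene stood at -0.50 and -0.60. Per cell, the granule-high value was 0.195 of the granule-low value for Il1b in the old library and 0.141 in the young library, and 0.455 and 0.267 for Il1rap. For Il1r2 it was 0.894 and 0.971, and for Il1rn 1.23 and 1.36, so on this scale only Il1b and Il1rap were past 1.5-fold.

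A ratio of UMIs between 2 members in the same cells does not depend on depth. Il1b per Il1r2 was 1.07 (1.03 to 1.11) in granule-high and 4.88 (4.80 to 4.96) in granule-low cells of the old library. In the young library it was 0.593 (0.472 to 0.741) in granule-high and 4.07 (4.02 to 4.12) in granule-low cells. Il1rap per Il1r2 was 0.585 against 1.15 in old cells and 0.338 against 1.23 in young cells. Cytokine and accessory chain transcripts were therefore scarcer, relative to decoy receptor transcripts, in granule-high cells of both libraries.

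**Figure D2:**
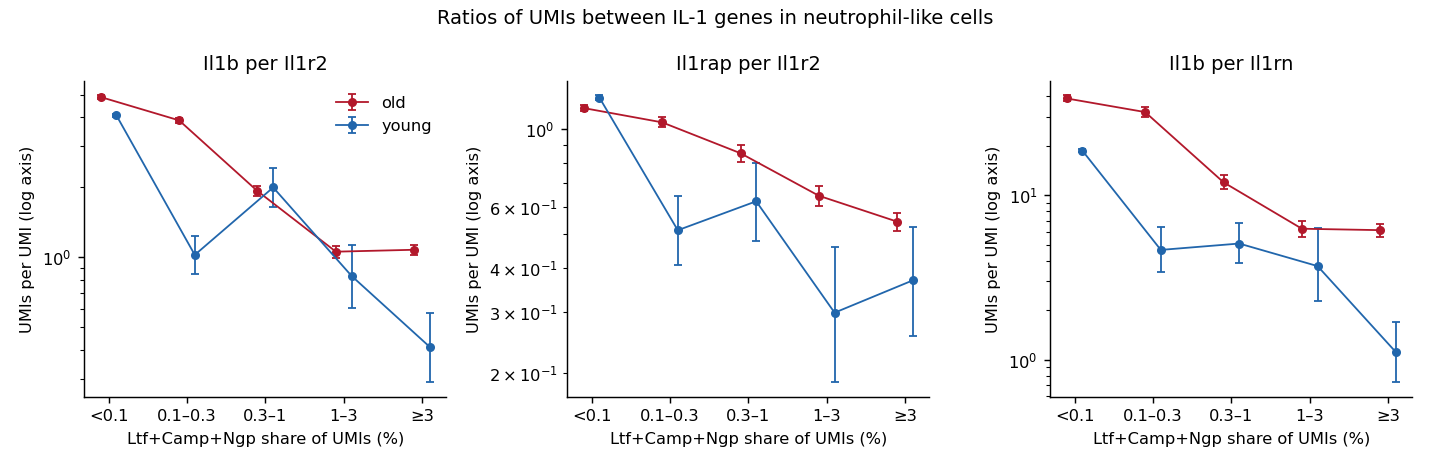
Ratios of summed UMIs between members along the granule classes, on log axes, old in red and young in blue, with exact 95% intervals as bars. Il1b per Il1r2 is 4.88 in old and 4.07 in young cells of the lowest class, and 1.08 in old and 0.410 in young cells of the highest.

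Free RNA limits how low a level can be read. Granule-high cells had 3.58 Il1b UMIs per old cell and 1.91 per young cell, against 4.07 in old and 3.27 in young B cell-like cells, so Il1b in granule-high cells did not exceed this level. Il1r2 in granule-high cells was 3.47-fold above the B cell-like level per cell in the old library and 4.80-fold in the young one, and Il1rn 4.82-fold and 6.28-fold above it. Il1rap was 1.66 times that level in the old and 0.929 times in the young library. The B cell-like level was itself uneven between cells, with a median of 1 Il1b UMI and a 90th percentile of 16.9 in the old and 13 in the young library. In the B cell-like cells below their median share of UMIs from S100a8 and S100a9, genes of abundant neutrophil proteins, Il1b had 0.884 UMIs per old cell and 0.526 per young cell. Granule-high cells lay above that lower value, but they were not reduced in this way, so the comparison cannot show a level above free RNA. Free RNA and cells captured together were not told apart in these levels.

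Within the lowest granule class, which both libraries filled, 3 of the 4 members lay within 1.5-fold between old and young. Il1b had 2901 CPM in old and 3063 CPM in young cells (log2 ratio -0.08), Il1r2 594 and 752 CPM (-0.34), and Il1rap 683 and 926 CPM (-0.44). Il1rn, the antagonist, had 74.6 CPM (71.5 to 77.7) in old and 164 CPM (160 to 168) in young cells, a log2 ratio of -1.12. In this class 39.6% of 7194 genes were lower in old cells and the median gene was at -0.48, which places Il1rn at -0.65 relative to it. Only 7.48% of genes had a lower ratio than Il1rn. Relative to the median gene Il1b was at 0.40, Il1r2 at 0.14 and Il1rap at 0.04, and 77.7% of genes had a lower ratio than Il1b. Per cell, the old values were 1.36 times the young ones for Il1b, 1.13 for Il1r2, 1.06 for Il1rap and 0.653 for Il1rn. The class was made up of different clusters at the 2 ages. The cluster led by Wfdc17 and Ifitm1 held 68.3% of its old and 0.748% of its young cells, while those led by Ctnna3 and by Cacnb2 held 20.8% and 6.78% of its old cells and 39.8% and 46.7% of its young cells.

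In the next class, from 0.1 to 0.3%, 1882 old cells met 66 young cells. Their median granule shares were 0.139% in old and 0.171% in young cells, while B cell-like cells had medians of 0.0437% and 0. The 2 ages may thus not be matched in maturity in this class, and the part of free RNA in placing old cells there was not tested. Il1b had 1880 CPM in old and 539 CPM in young cells (+1.80), and Il1rap 507 and 271 CPM (+0.90), both higher past 1.5-fold, as were 15.6% of 6667 genes. Il1rn had 58.5 CPM in old and 116 CPM in young cells (-0.97), lower as were 24% of genes, and Il1r2 had 485 and 528 CPM (-0.12). In granule-high cells Il1rn had 35.7 CPM in old and 86.5 CPM in young cells (-1.25), the single member past 1.5-fold there, where 30% of 6639 genes were lower. Il1rn was thus past the limit, lower in old cells, in all 3 of these granule classes. Averaged over the 2 lowest classes, Il1b stood at 0.86 and Il1rn at -1.05, both past 1.5-fold, as were 7.62% of 6453 genes upward and 24.1% downward, while Il1rap stood at 0.23 and Il1r2 at -0.23.

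Both libraries had 50 or more cells in 5 neutrophil-like clusters, where Il1b and Il1rn went in opposite directions. They were led by Ctnna3 and Slc7a11, by Cacnb2 and Clec4n, by Wfdc17 and Ifitm1, by Ltf and Ngp, and by the interferon-stimulated Ifit3 and Ifit1. Il1b was higher in old cells in 5 of 5, at log2 ratios of 0.18 to 0.97, and past 1.5-fold in 4. Il1rn was lower in old cells in 5 of 5, at -1.46 to -0.48, and past 1.5-fold in 3. In the order just given, 4.7, 5.92, 10, 7.12 and 7.7% of genes were higher and 10.2, 9.58, 28.2, 29.3 and 24.7% lower. Il1r2 and Il1rap were within 1.5-fold in all 5. The median gene lay between -0.36 and -0.08 in these clusters. Counted per cell, Il1b was 1.42 to 2.01 times the young value and Il1rn 0.484 to 0.782 times.

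The largest such cluster by young cells, led by Cacnb2 and Clec4n, shows the size of these differences. Its 403 old cells held Il1b at 5907 CPM and Il1rn at 117 CPM, and its 4558 young cells held Il1b at 3468 CPM and Il1rn at 165 CPM. Il1b was higher there past 1.5-fold, as were 5.92% of 7590 genes, while Il1rn at -0.49 was not past the limit. In the cluster led by Ctnna3 and Slc7a11, 1201 old cells had 5207 CPM and 3926 young cells 2654 CPM of Il1b, and 4.7% of 7002 genes were higher. In the cluster led by Ltf and Ngp, 2527 old cells had 39.9 CPM and 120 young cells 112 CPM of Il1rn, and 29.3% of 6632 genes were lower. The old cells were the shallower ones in the first 2 of these clusters, at medians of 3319 against 3837 and 3885 against 4274.5 UMIs, and the deeper ones in the third, at 13103 against 9855.

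As a ratio within the same cells, Il1b per Il1rn was 38.9 (37.3 to 40.6) in old and 18.7 (18.3 to 19.2) in young granule-low cells. In granule-high cells it was 6.20 (5.78 to 6.65) in old and 1.94 (1.43 to 2.65) in young cells. Cytokine transcripts therefore outnumbered antagonist transcripts by more in old than in young cells at both ends of the granule scale. At the granule-high end Il1b was no higher per cell than in B cell-like cells. In B cell-like cells themselves the ratio was 34.0 (23.5 to 51.0) in the old and 20.9 (16.3 to 27.2) in the young library. The part of free RNA in the ratios of granule-high cells was not tested.

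**Figure D3:**
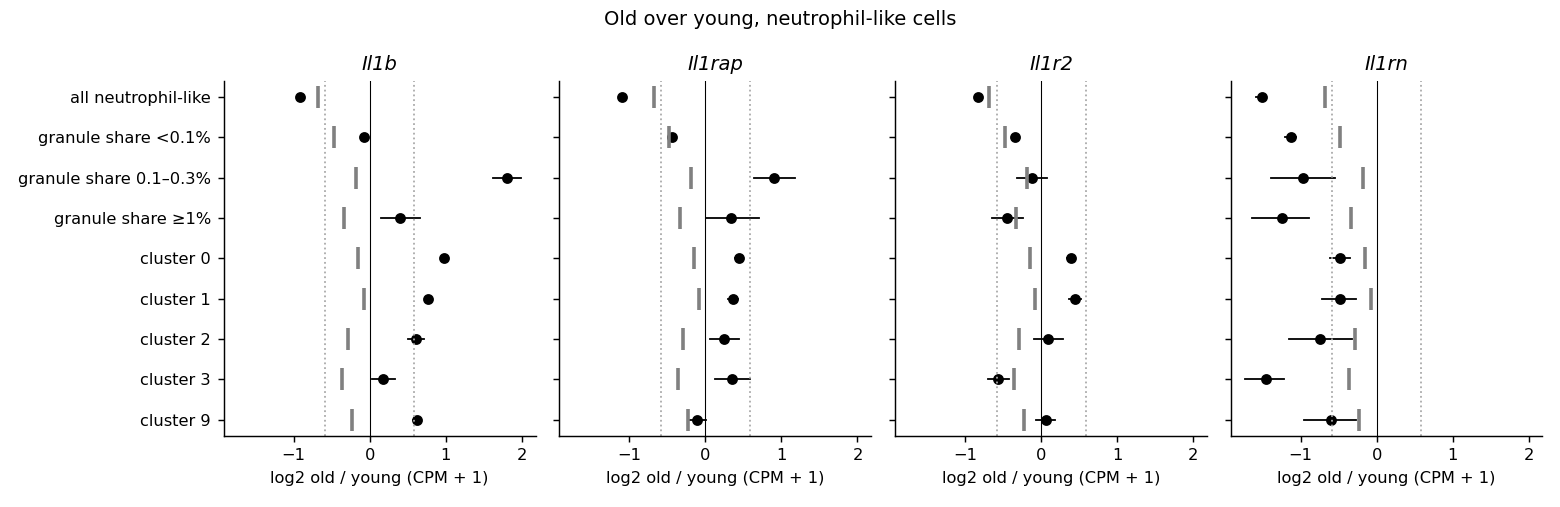
Log2 ratios of old over young CPM (1 CPM added) for 4 members in all neutrophil-like cells, in 3 granule classes and in the 5 clusters shared by the libraries, numbered as in the clustering (0, led by Ctnna3; 1, Cacnb2; 2, Wfdc17; 3, Ltf; 9, Ifit3). Points carry 95% intervals from the counts, grey ticks mark the median gene and dotted lines 1.5-fold. Il1rn lies left of 0 in every row, from -1.51 to -0.48, whereas Il1b lies right of 0 within the clusters and left of it in all cells.

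Cells rich in Il1b also held more Il1rap and Il1r2. Granule-low cells were thinned to 1000 UMIs and grouped by their Il1b UMIs (0 to 1, 2 to 4, and 5 or more). Il1rap averaged 0.523, 0.778 and 1.04 UMIs along these groups in old cells and 0.810, 0.927 and 1.11 in young cells. Il1r2 averaged 0.5, 0.613 and 0.874 in old cells and 0.690, 0.741 and 0.845 in young cells. Il1rn averaged 0.0713 (0.0586 to 0.0860), 0.0834 and 0.103 (0.0860 to 0.122) in old cells and 0.168, 0.156 and 0.184 in young cells, with overlapping intervals between the lowest and highest group in the young library. Median depth before thinning was lower in the Il1b-rich groups, at 7163.5, 5982 and 4400 UMIs in old cells and 4282, 4033 and 3841 in young cells, and its part in these differences was not tested. The tenth of granule-low cells with the most Il1b held 31.0% of its thinned UMIs in the old and 28.2% in the young library, so its transcripts were spread over many cells.

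**Figure D4:**
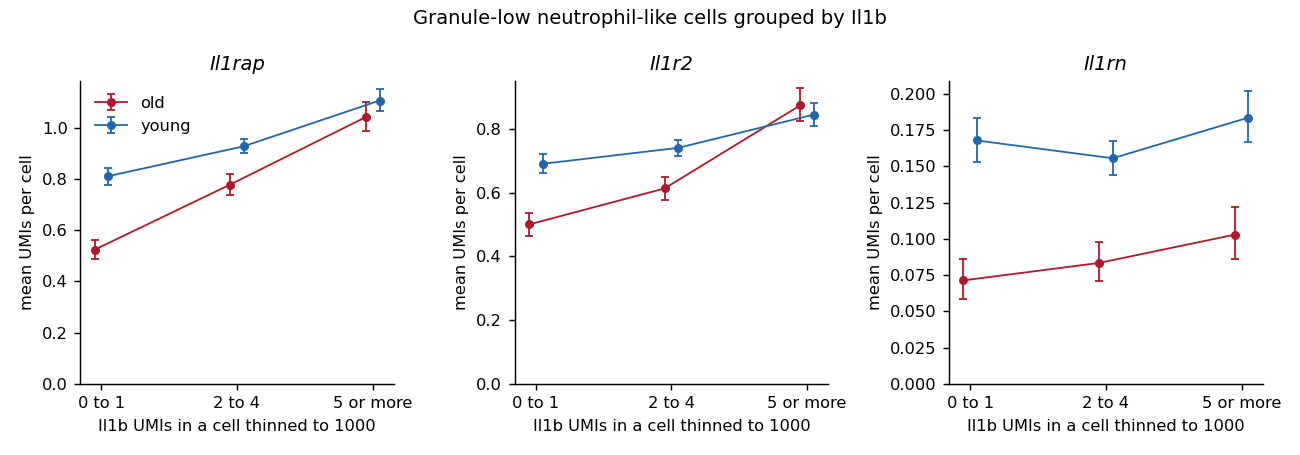
Mean UMIs of Il1rap, Il1r2 and Il1rn in granule-low neutrophil-like cells thinned to 1000 UMIs and grouped by their Il1b UMIs, old in red and young in blue, with exact 95% Poisson intervals as bars. Il1rap and Il1r2 are higher in cells with more Il1b in both libraries, and Il1rn is lower in old than in young cells in all 3 groups.

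Interferon-high neutrophils, with 0.5% or more of their UMIs from 12 interferon-stimulated genes, numbered 96 of the old cells (1.08%) and 534 of the young cells (5.37%). Near this limit 54 old and 240 young cells had 0.4 to 0.5%, and 27 old and 157 young cells had 0.5 to 0.6%. In the young library none of the 4 measured members was past 1.5-fold, a limit that 5.11% of 7354 genes passed upward and 5.02% downward. Il1b had 3068 CPM in interferon-high and 2962 CPM in other young cells (+0.05), Il1rap 989 and 894 CPM (+0.15), Il1r2 888.0 and 731 CPM (+0.28) and Il1rn 199 and 160 CPM (+0.32). The median gene stood at -0.05, so all 4 lay slightly above it. Granule-low young cells gave the same count, with none of 4 past the limit and 4.96% of 7356 genes higher.

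In the old library all 4 were higher past 1.5-fold in interferon-high cells, as were 31.7% of 6902 genes. Il1b had 4169 CPM in interferon-high and 1561 CPM in other cells (+1.42), Il1r2 913 and 412 CPM (+1.14), Il1rap 918 and 416 CPM (+1.14) and Il1rn 111 and 55.7 CPM (+0.98). The groups also differed in depth, at medians of 3945 and 7460 UMIs, and 77 of the 96 interferon-high cells had a granule share under 0.1%. Among cells in that granule class alone, the ratios were +0.62 for Il1b, +0.64 for Il1r2, +0.63 for Il1rn and +0.40 for Il1rap. There 3 of 4 were past 1.5-fold against 21.4% of 6868 genes, with the median gene at 0.16. Counted per cell within that class, the interferon-high values were 0.941 to 1.10 times those of the other cells.

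Monocytes carried less of all 4 measured transcripts than neutrophil-like cells as a whole. Classical monocyte-like cells numbered 867 in the old library and 8 in the young one, too few there for a value. In the old library Il1b had 292 CPM in them and 1575 CPM in neutrophil-like cells (log2 ratio -2.43), Il1r2 74.7 and 415 CPM (-2.46), Il1rn 12.6 and 56.0 CPM (-2.07) and Il1rap 109 and 419 CPM (-1.93). All 4 measured members were lower past 1.5-fold, as were 12.1% of 8534 genes, while the median gene stood at 0.38. Per cell the classical values were 0.434 of the neutrophil-like ones for Il1b, 0.421 for Il1r2, 0.524 for Il1rn and 0.609 for Il1rap. Granule-high neutrophils of the old library, at 221 CPM and 3.58 UMIs per cell, held less Il1b than classical monocyte-like cells, which had 5.98 UMIs per cell. None of the 4 differed by 1.5-fold from the B cell-like CPM of the same library, which was 374 for Il1b, 88.9 for Il1r2, 11.02 for Il1rn and 109 for Il1rap, while 20.8% of 9885 genes were higher and 32.3% lower. Classical monocyte-like cells were deeper, at medians of 18974 against 8614 UMIs, and per cell the 4 stood at 1.47 to 2.15 times the B cell-like value.

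Non-classical monocyte-like cells, 503 old and 456 young, held more Il1b than classical ones. Il1b had 698 CPM in them and 1575 CPM in neutrophil-like cells of the old library, and 638 and 2968 CPM in the young library. All 4 measured members were lower than in neutrophils in both libraries, at log2 ratios of -1.67 to -1.17 in the old and -2.55 to -2.11 in the young one. In the old library 9.95% of 8547 genes were lower past 1.5-fold, and 17.3% of 8949 genes in the young one. Per cell the non-classical values were 0.395 to 0.558 of the neutrophil-like ones in the old and 0.398 to 0.553 in the young library. Median Il1b UMIs per cell were 3 in old and 2 in young cells, against 1 in B cell-like cells of both libraries.

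To limit carry-over of neutrophil RNA, each class was then reduced to its cells below the median share of S100a8 and S100a9 UMIs, a choice made after the data were seen. Il1b then had 323 CPM (301 to 348) in old and 144 CPM (129 to 161) in young non-classical cells, 137 CPM (129 to 146) in old classical cells, and 78.5 CPM (64.3 to 94.9) in old and 76.3 CPM (62.8 to 91.9) in young B cell-like cells. Among these cells Il1b was above the B cell-like level of its library in both kinds of monocyte. Each class was cut at its own median, so the neutrophil RNA left was not matched between classes, and its part in this order was not tested. For classical cells this differs from the order over all cells, where Il1b had 292 CPM in classical and 374 CPM in B cell-like cells. Il1r2 had 7.34 CPM in old and 13.3 CPM in young non-classical cells, and 19.8 CPM in old and 13.8 CPM in young B cell-like cells, so it was not above that level. Il1rn had 3.46 CPM in old and 8.42 CPM in young non-classical cells, against 2.93 and 7.56 CPM in B cell-like cells. Il1rap had 59.4 CPM (54.3 to 64.9) in old classical cells, above the 33.0 CPM (24.1 to 44.2) of old B cell-like cells, and 39.7 CPM in old and 45.6 CPM in young non-classical cells, where its intervals overlapped those of B cell-like cells.

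Il1r1 stood higher in T cell-like than in neutrophil-like cells of both libraries. Old classical monocyte-like cells had 48 UMIs in 32 of 867 cells, or 2.70 CPM (1.99 to 3.58), under the 5 CPM limit and within reach of the old B cell-like interval (0.235 to 3.33). By cells, 2 of 242 old B cell-like cells held a UMI. The classical level was 5.86-fold that of old neutrophil-like cells in CPM (log2 interval 1.90 to 3.22) and 13.7-fold per cell. Classical cells were also deeper, at medians of 18974 against 7427 UMIs in neutrophil-like and 8614 in B cell-like cells. T cell-like cells had 14 UMIs in 5 of 179 old cells and 34 UMIs in 8 of 176 young cells, or 7.32 CPM (4.0 to 12.3) and 19.5 CPM (13.5 to 27.3). Single T cell-like cells held up to 5 UMIs in the old and 7 in the young library, but a single young neutrophil-like cell held 8 and a young non-classical monocyte-like cell 5. No Il1r1 UMI was found in 503 old non-classical monocyte-like cells, which allows a share of cells with a UMI of up to 0.596%, and the 456 young ones had 7 UMIs in 3 cells.

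**Figure D5:**
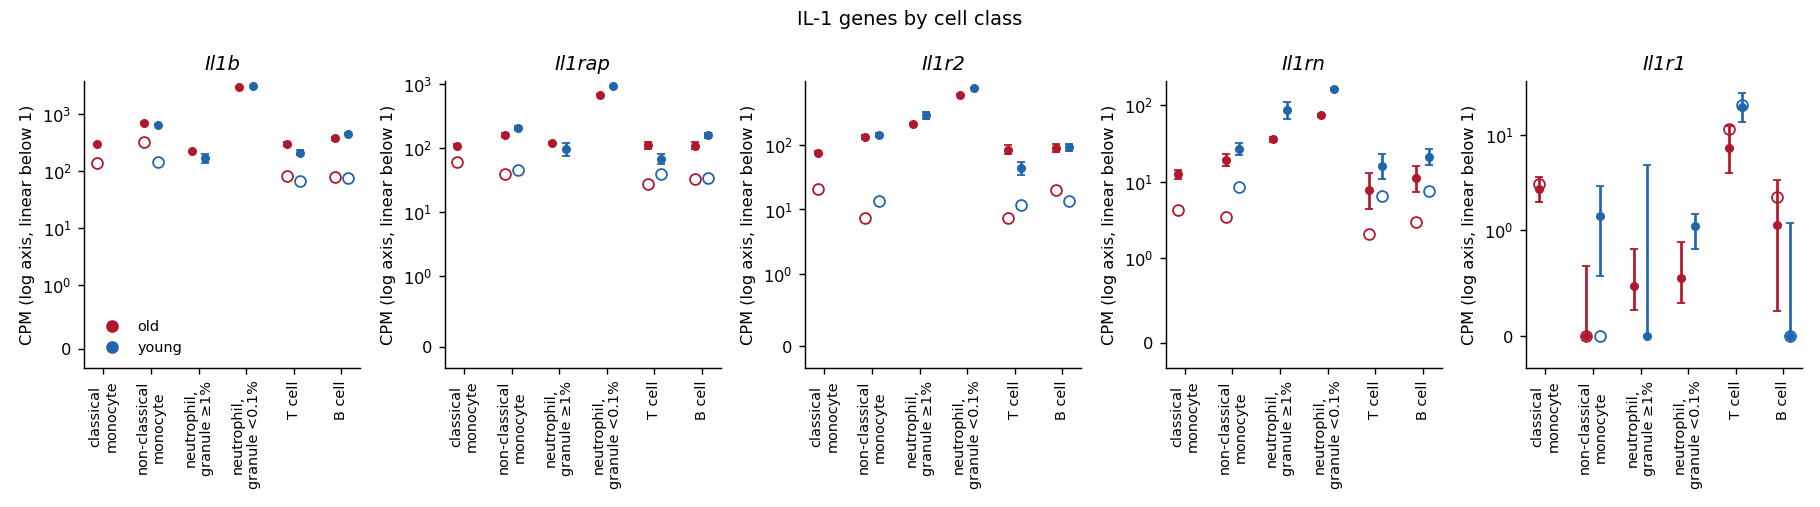
CPM of the 5 members by cell class on log axes (linear below 1), old in red and young in blue, with exact 95% Poisson intervals as bars; open circles give the cells below the median S100a8 and S100a9 share of a class. Among the classes drawn, Il1b is highest in granule-low neutrophils at 2901 CPM in old and 3063 CPM in young cells, and Il1r1 is highest in T cell-like cells at 7.32 and 19.5 CPM.

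The genes most like each member were sought over 31 profiles, each the summed UMIs of 1 cluster in 1 library with at least 50 cells, among 8959 genes with 20 CPM or more in at least 1 profile. The profiles share libraries and depth, and Pearson's r is given as a description. Il1b was most like Il1rap (0.981), the phosphatase gene Dusp1 (0.968) and the transcription factor gene Ets2 (0.961). Il1rap was most like Il1b, the ectonucleotidase gene Entpd1 (0.978) and Dusp1 (0.977). Il1r2 was most like the cystine transporter gene Slc7a11 (0.988), Arg2, which encodes an arginase (0.986), and Hdc, which encodes the enzyme that makes histamine (0.981). Il1rn was most like Igf1r (0.974), Slc35a5 (0.967) and Nudt4 (0.966). Il1r1 was most like Cd163l1 (0.806), Als2cl (0.745) and the chemokine receptor gene Ccr4 (0.743).

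The wider pathway was described by 5 lists in neutrophil-like cells, old over young, with genes at 5 CPM or more counted as measured. Of 17 measured genes for signalling below the receptor, 13 were lower in old cells and none was higher, where 50.6% of all genes were lower and 7.72% higher, with a median log2 ratio of -0.88 against -0.59 over all genes tested. They included Peli1, a ubiquitin ligase gene, at 93.7 CPM in old and 394 CPM in young cells (-2.06), Irak2, of the receptor-associated kinase family, at 41.6 and 108 CPM, and Tab2, which links kinase complexes, at 106 and 231 CPM. Of 11 response genes, 7 were lower and 2 higher (median -0.71), a share of lower genes near that over all genes. The 2 were Lcn2, which encodes a granule protein that binds siderophores, at 8972 CPM in old and 1406 CPM in young cells, and the chemokine gene Cxcl2, at 67.3 and 22.8 CPM. Of 10 genes of the inflammasome and precursor cutting, 3 were lower and 2 higher (median -0.31), a smaller share of lower genes than over all genes, with the sensor genes Nlrp3 at 86.9 CPM in old and 332 CPM in young cells and Aim2 at 21.1 and 95.3 CPM, and the adaptor gene Pycard at 49.2 and 21.7 CPM. All 3 measured ligand and antagonist genes of the family (Il18, Il18bp and Il1f9, which encodes interleukin 36γ) lay within 1.5-fold. Of 2 other receptor genes, Il18rap was lower, at 190 CPM in old and 451 CPM in young cells, and Il18r1 was within the limit. In the lowest granule class 39.6% of all genes were lower in old cells. There 11 of 17 signalling genes were lower and 0 higher (median -0.71). Of 11 response genes 4 were lower and 2 higher (median -0.47), and of 10 inflammasome genes 2 were lower and 1 higher (median -0.20). Pycard lay within 1.5-fold in this class, at 29.7 CPM in old and 21.5 CPM in young cells. The part of maturity in the differences over all neutrophil-like cells was not tested.

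Along maturity, several of these genes were low together with Il1b. In granule-high against granule-low old cells, Nlrp3 had 18.7 and 147 CPM (-2.91), the prostaglandin synthase gene Ptgs2 1.29 and 21.4 CPM (-3.29) and Cxcl2 13.1 and 119 CPM (-3.10). In young cells Nlrp3 had 34.1 CPM in granule-high and 341 CPM in granule-low cells (-3.29), whereas Cxcl2 had 17.0 and 23.1 CPM (-0.42). Of the measured response genes, 7 of 10 were lower in the old and 7 of 11 in the young granule-high cells, where 36.4% and 46.2% of all genes were lower, at medians of -1.47 and -1.52 against -0.33 and -0.49 over all genes. Genes higher in granule-high cells made up 12.4% of all in the old and 15.5% in the young library. Lcn2 was among them, at 15953 CPM in granule-high and 4271 CPM in granule-low old cells and 13513 and 1102 CPM in young cells. Pycard was among them in old cells only, at 75.9 CPM in granule-high and 29.7 CPM in granule-low cells (+1.32). In young cells it had 23.6 and 21.5 CPM (+0.13). Among interferon-high cells with low granule share, Il18bp, which encodes a soluble binder of interleukin 18, stood higher than in other such cells, at 43.2 against 12.5 CPM in the old and 23.2 against 8.93 CPM in the young library.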

How the data were processed

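The deposited matrices hold raw UMI counts, made by the authors with Cell Ranger 7.2.0 per the file headers. The submitters' processing notes name Cell Ranger and build mm10, and how cells were called is not given in the sources used here. The members and the gene lists were chosen with earlier results of these data known.

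Barcodes were kept if they had 200 or more genes and no more than 20% mitochondrial UMIs. Both libraries were clustered together in scanpy 1.11.5 (leidenalg 0.10.2, Python 3.11.15; 2000 variable genes, 30 components, 15 neighbours, resolution 0.6) without the genes of the interleukin 1 family. The monocyte cluster was split once more at resolution 0.2. Clusters were named "X-like" from marker lists with at least 3 markers detected. The naming limits and that split were set after the data were seen. A cluster of neutrophil and platelet genes and one led by Mt2, Ghr and Zfpm2 stayed unnamed and out of the neutrophil-like cells. No doublet caller was run, and cells with 0.5% or more of their UMIs from markers of other lineages were dropped as one of the alternatives.

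UMIs were summed per library and set of cells and given as CPM. Ratios are log2 with 1 CPM added. Genes were measured at a mean of 5 CPM and called from 1.5-fold, with at least 50 cells on each side. The median gene is that of all genes averaging 50 CPM. Intervals are exact at 95% and that of a ratio comes from the counts with no CPM added. A count of 0 was given a limit of 3 counts. Tested on simulated counts for old over young in neutrophil-like cells, the ratio step placed 200 of 200 genes changed 3-fold past the limit and 0 of 6868 unchanged genes. Those counts came from 1 pooled profile with counting error only, so this checks the arithmetic. It cannot show how differences between libraries, in cell make-up or in free RNA affect the calls. The text names the 5 members, up to 3 genes of each other list by size of the old over young ratio at 10 CPM or more, and the 3 genes most like each member. The alternatives varied the filter, the total, the scale, the depth, the limits, the clustering and the cells.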

Additional observations from a re-analysis of the deposited data

Results flagged for a closer look

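The old over young ratio of 2 members changed sign along the granule scale, and the difference between the classes was not tested. Il1b stood at a log2 ratio of -0.0787 in cells with a granule share under 0.1% and at 1.80 in cells with 0.1 to 0.3%. Il1rap stood at -0.440 in the lower class and at 0.903 in the upper one. The upper class held 1882 old but 66 young cells.

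Members were also found in clusters that stayed unnamed and entered no comparison. The cluster with neutrophil and platelet genes held Il1b at 2555 CPM in 683 old cells and 2741 CPM in 845 young cells, against 374 and 443 CPM in B cell-like cells. The cluster led by Mt2, Ghr and Zfpm2 held Il1b at 1041 CPM in 409 old cells and 1879 CPM in 87 young cells. Its old cells also held Il1r1 at 11.4 CPM (25 UMIs), against 1.14 CPM in old B cell-like cells, and its young cells held 0 Il1r1 UMIs.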

How the results depend on the processing

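Of 656 member ratios under alternatives, 392 moved by no more than their counting error (0.1 on the log2 scale where no interval was computed), 256 moved by more and 8 reversed. Of the 538 whose main value was past 1.5-fold, 530 kept their direction. The count of 4 members lower in old neutrophil-like cells became 2 with a total free of mitochondrial and ribosomal protein genes, S100a8, S100a9, Ltf, Camp and Ngp. It became 2 after thinning, 2 with equal weight per cell, 2 at a 2-fold limit and 1 when centred on the median gene. In alternatives added after seeing the data it became 0 in UMIs per cell, where the log2 ratios were 0.048 for Il1b and 0.13 for Il1r2, and 1 with the B cell-like level taken off, where Il1r2 stood at 0.011. Averaged over the 2 granule classes shared by the libraries, 2 members were past the limit (Il1b higher and Il1rn lower, against 7.62% and 24.1% of genes). This count became 1 at a 2-fold limit. It became 4 with limits meant to cut each library into 5 equal parts by granule share, where Il1b stood at -3.62. The median granule share of young neutrophil-like cells was 0, so ties prevented equal parts there and left some parts without young cells. The -3.62 thus covers only parts that both libraries filled. It sets unlike granule shares against each other and is not a mean over 5 matched parts. The 4 members lower in granule-high cells became 2 in each library, both in UMIs per cell and with the B cell-like level taken off. Il1rn then stood at 0.29 in the old and 0.44 in the young library per cell, and at 0.37 and 0.54 with that level taken off. The 4 members higher in old interferon-high cells became 0 in UMIs per cell and 1 with that level taken off. UMIs per cell leave out the division by depth, and taking off the B cell-like level changes that as well, so the part of that level was not tested alone. The counts for monocytes and for young interferon-high cells moved by no more than 1.5 times in the alternatives run. No paired analysis was possible because each age has 1 library. The limits are the single library per age, the unknown number of animals, the small young classes above a granule share of 0.1%, and free RNA, which bounds low levels of Il1b.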

Other observations

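An unnamed cluster led by Ifi211, Stxbp6 and Batf3 was kept out of the comparisons of monocytes. Il1b had 300.2 CPM in its 291 old cells and 334 CPM in its 161 young cells, against 374 and 443 CPM in B cell-like cells. Il1rn had 9.77 CPM in old and 32.7 CPM in young cells there, and Il1rap 87.7 and 128 CPM.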
